A study of Mus musculus with 401 samples.

Results

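The transcripts of 40 DNA repair genes were followed in mouse oocytes and in the cumulus cells that surround them. The members were taken by gene symbol from both deposited count tables and were sorted by pathway. Measured values did not set the list, but it was chosen with earlier results of these data known. The study had already reported DNA damage and repair among the terms of genes higher in calorie-restricted oocytes. It also reported such terms for genes higher in old cumulus cells, and DNA damage response for genes lower in old oocytes. They were 40 of the 43633 gene identifiers in the tables. Homologous recombination held 15 of them (Brca1, Brca2, Palb2, Bard1, Rad51b, Rad51c, Rad51d, Xrcc2, Xrcc3, Rad52, Rad54l, Rad50, Nbn, Mre11a and Blm). The damage signalling kinases were Atm, Atr, Chek1 and Chek2, 4 genes, and the Fanconi anemia genes were Fanca and Fancd2, 2 genes. End joining held 5 (Xrcc4, Xrcc5, Xrcc6, Lig4 and Prkdc), mismatch repair 3 (Msh3, Msh6 and Pms2), nucleotide excision repair 6 (Xpa, Xpc, Ercc1, Ercc2, Ercc3 and Ercc4) and base excision and single-strand break repair 5 (Xrcc1, Parp1, Lig3, Ogg1 and Apex1).

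Breaks through both DNA strands are mended either by homologous recombination, which copies an intact sister or homologous sequence, or by end joining, which ties the broken ends together directly. Mismatch repair corrects replication errors, nucleotide excision repair removes bulky adducts such as those left by ultraviolet light, and base excision repair removes single damaged bases. Oocytes of the primordial follicle wait in meiotic arrest for most of a female's life and rely on these pathways to keep their genome intact, while the granulosa-derived cumulus cells still divide.

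The study asked how age, calorie restriction and ovarian stimulation change the transcriptomes of germinal vesicle oocytes and of the cumulus cells of the same complex. RNA was measured by RamDA-seq, which reads total RNA along its whole length and uses no molecular identifiers. All females were B6D2F1, the cross of C57BL/6 and DBA/2. The first set held young (2 months), middle (9 months) and old (14 months) females fed ad libitum (AL) and calorie-restricted (CR) females of 9 months. CR was brought in stepwise and the restricted females were housed singly. Per the study's methods, eCG or CARD HyperOva was injected for hyperovulation, in the first set as well. The second set held hyperovulated AL females of 2, 4, 9 and 14 months (2mo, 4mo, 9mo, 14mo) and females of 2 months that were not hyperovulated (2moNoH). Each library is 1 oocyte or the cumulus cells of 1 complex, and several complexes came from each mouse. The young and old groups had 2 mouse labels each, middle had 4 and CR 3, and 1 label of the old group joins more than 1 mouse. The second set had 5 mice at 2mo, 8 at 4mo, 4 at 9mo, 5 at 14mo and 8 at 2moNoH.

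Of 401 deposited libraries 399 were used. A complex of the middle group was left out because its oocyte library correlated better with the cumulus profile (r = 0.913) than with the oocyte profile (r = 0.707). In the remaining libraries none of the 12 oocyte markers had a median of 0 in oocytes, and 10 of the 12 did in cumulus cells. Total counts ran from 559305 to 4536690 in oocyte libraries and from 510029 to 2501005 in cumulus libraries. CR libraries were the deepest, with medians of 3578882 counts in oocytes and 2019007 in cumulus cells against 2332126 and 1091806 in the middle group, and their names form a series of their own, so diet and preparation cannot be told apart. The reads of 20 members could be shared with a neighbour, because their exons overlap those of another gene and counting by strand was not stated. Multi-mapped reads were counted as well. Xrcc2, Atm and Chek2 have no such overlap, yet many of their nonzero values were not whole. The shares were 39.6%, 31.5% and 19.7% in the first set and 26.7%, 22.4% and 12.2% in the second.

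All 40 members were tested in each comparison. A change is given as a log2 fold change with its standard error (SE) from edgeR's quasi-likelihood test, and a member is said to rise or fall where its p-value, adjusted by the Benjamini-Hochberg method over all genes tested, was under 5%. The libraries were the units of that test, as in the study. Libraries of 1 mouse are not independent. For comparisons between groups, mouse means and an exact two-sided permutation test over mice are therefore given beside the members the results turn on. The exact p-values are not adjusted over the 40 members. They are printed for members already called by edgeR from the same values, so they are not independent evidence. Between cell types no permutation test over mice was run, and p-values there rest on libraries. The young cumulus samples came from 2 mouse labels, with 3 and 12 samples. Levels are CPM (counts scaled to the library's TMM-adjusted total within a cell type). Wherever genes or cell types are compared they are RPKM, per kilobase of gene length. For RPKM the oocyte and cumulus libraries of a group were scaled together.

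Repair transcripts were divided between the oocyte and its cumulus cells, and most members were higher in the oocyte. In the young group 31 of 40 members differed between 15 oocytes and the 15 cumulus samples of the same complexes, 22 higher and 9 lower in oocytes, where 85.0% of all genes differed (42.0% higher and 43.0% lower). At 2mo 36 members differed over 24 complexes, 24 higher and 12 lower, against 88.4% of all genes (42.3% higher and 46.1% lower). The median member was higher in oocytes by 0.53 (log2) in young and 0.68 in 2mo females, while the median of all genes was -0.08 and -0.16. The same 22 members were higher and the same 9 lower in both sets, none of these 31 changed direction, 5 were called in 1 set only (Rad54l, Xrcc2, Pms2, Ercc1 and Xrcc4) and 4 in neither (Bard1, Xpa, Atr and Ercc4). Of 95 other genes of these pathways, 59 were higher and 20 lower in young oocytes. Cumulus samples are pools, so fewer cells and less RNA per cell cannot be told apart, and values stand for shares of a library's RNA.

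**Figure D1:**
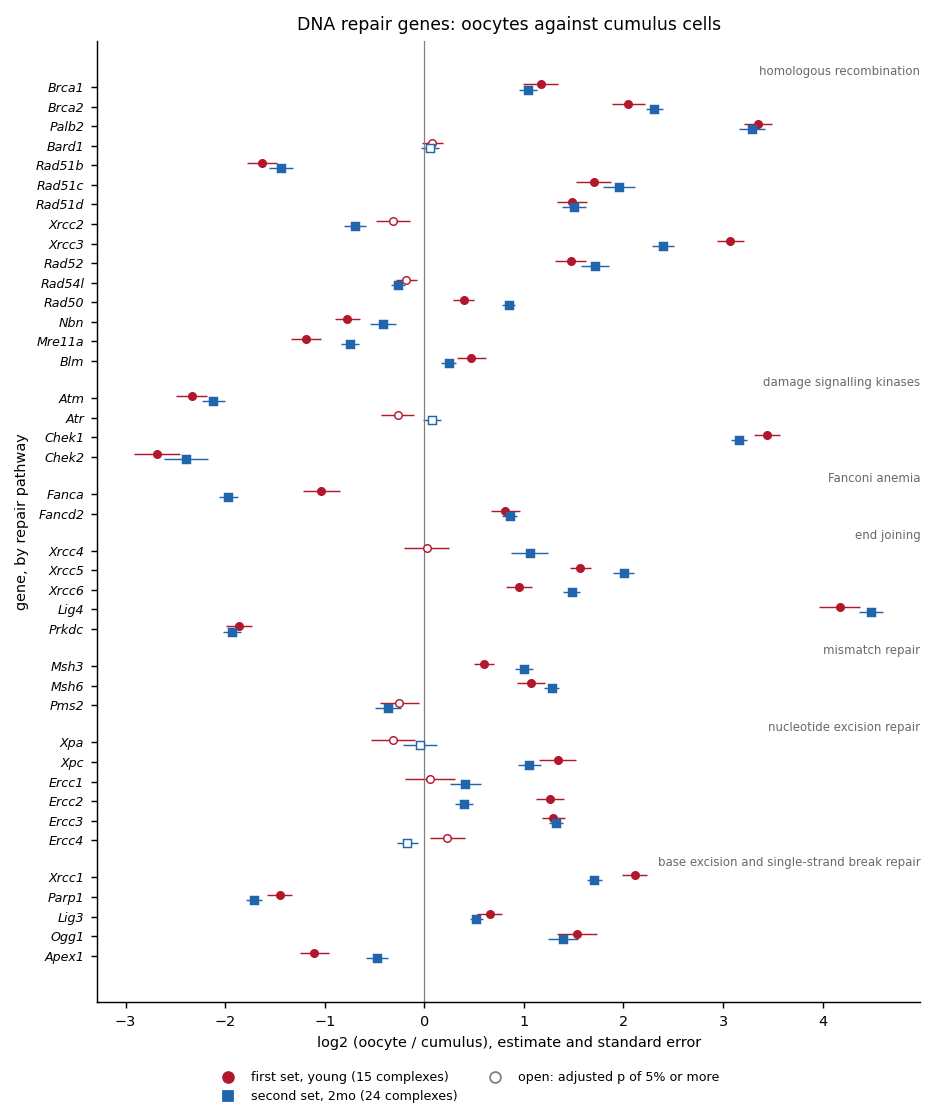
Log2 difference between oocytes and cumulus cells of the same complexes for the 40 members, grouped by pathway, with points for the young and the 2mo groups, bars of 1 SE and open symbols where the adjusted p missed 5%. Lig4 lies farthest to the right in both sets (4.17 and 4.49), and Chek2 farthest to the left (-2.68 and -2.40).

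Lig4, the ligase that seals the ends in end joining, showed the largest difference. Its level in young females ran from 9.94 to 36.5 RPKM with a median of 26.9 in oocytes, and from 0.512 to 3.63 with a median of 1.35 in cumulus cells. All oocyte libraries lay above all cumulus libraries, in the young and the 2mo groups alike. The log2 difference was 4.17 (SE 0.21, adjusted p = 4.9e-20), 18.0-fold, and at 2mo 4.49 (SE 0.12, adjusted p = 8.2e-41), 22.4-fold. The end joining genes did not share 1 direction. Xrcc5, the larger subunit of the Ku dimer that binds broken ends, was 2.96-fold higher in young and 4.01-fold higher in 2mo oocytes, and Xrcc6, the other Ku subunit, 1.94-fold and 2.79-fold. Prkdc, the kinase that Ku recruits, was lower in oocytes, with a median of 2.53 RPKM against 9.13 in young cumulus cells and no overlap between the libraries of either set (log2 difference -1.86, SE 0.13, and at 2mo -1.93, SE 0.09). Xrcc4, the partner of Lig4, was at medians of 1.65 RPKM in young oocytes and 1.86 in young cumulus cells and passed the test only at 2mo (1.06, SE 0.19).

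The 4 damage signalling kinases were split between the cell types. Chek1, the checkpoint kinase that answers to Atr, was the member with the highest RPKM in oocytes, 80.5 ± 12.3 (SD, n = 15) in young and 95.0 ± 11.2 (SD, n = 24) in 2mo females, against 7.40 ± 2.00 and 10.6 ± 2.88 in cumulus cells. Its oocyte and cumulus libraries did not overlap in either set, and the log2 difference was 3.44 (SE 0.13) in young and 3.16 (SE 0.08) in 2mo females, 10.9-fold and 8.95-fold. Chek2, the checkpoint kinase that answers to Atm, ranked last of the 40 in oocytes. It measured 0.665 ± 0.395 RPKM (SD, n = 15) in young oocytes against 4.44 ± 1.32 in their cumulus cells, with log2 differences of -2.68 (SE 0.23) and -2.40 (SE 0.22). Atm itself, the kinase that senses broken ends, had a median of 1.71 RPKM in young oocytes and 8.31 in cumulus cells, without overlap (-2.34, SE 0.16, and -2.12, SE 0.12). Atr, which senses stretches of single-stranded DNA, was at medians of 4.00 and 4.34 RPKM and did not pass the test in either set (-0.27, SE 0.17, and 0.08, SE 0.09).

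Among the homologous recombination members 9 were higher and 3 lower in young oocytes, and 9 were higher and 5 lower at 2mo. Palb2, which joins the Brca1 and Brca2 proteins, was 10.2-fold and 9.77-fold higher in oocytes (log2 difference 3.35, SE 0.14, and 3.29, SE 0.13), and its libraries did not overlap. Xrcc3 followed with 3.07 (SE 0.13) and 2.40 (SE 0.11). Brca2, which acts with Palb2 in recombination, had medians of 27.8 RPKM in young oocytes and 6.37 in their cumulus cells (2.05, SE 0.17, and at 2mo 2.31, SE 0.08). Brca1 was 2.25-fold and 2.06-fold higher, and Blm, a helicase that undoes recombination intermediates, 1.39-fold and 1.19-fold higher. Rad51b, Rad51c and Rad51d did not share 1 direction. Rad51c and Rad51d were higher in oocytes (1.70, SE 0.18, and 1.48, SE 0.15, in young females), whereas Rad51b was lower (-1.63, SE 0.15, and at 2mo -1.44, SE 0.12). The MRN complex, which trims broken ends, was split as well, with Rad50 higher (0.40 and 0.85) and Nbn (-0.77 and -0.41) and Mre11a (-1.19 and -0.74) lower in oocytes. Of the Fanconi anemia genes, which act on crosslinks between strands, Fancd2 was higher (0.81 and 0.86) and Fanca lower (-1.03 and -1.97).

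In mismatch repair, Msh6, the subunit that reads single mispairs, ranked second of the 40 in both cell types and was 2.10-fold and 2.42-fold higher in oocytes, and Msh3, which reads larger loops, was 1.51-fold and 2.00-fold higher. The third member, Pms2, measured -0.25 in young females (adjusted p = 0.226) and was lower in 2mo oocytes (-0.37, adjusted p = 0.00861). In nucleotide excision repair the DNA-binding sensor Xpc was 2.53-fold and 2.08-fold higher in oocytes, and Ercc3, a helicase of the TFIIH complex, 2.46-fold and 2.51-fold. The scaffold Xpa was low in both cell types, with medians of 2.66 RPKM in young oocytes and 3.02 in cumulus cells, and did not pass the test (-0.32, SE 0.22, and at 2mo -0.04, SE 0.17). In base excision and single-strand break repair all 5 members differed. The scaffold Xrcc1 (2.11, SE 0.13, and 1.71, SE 0.08), its partner ligase Lig3 (0.65 and 0.52) and Ogg1, the glycosylase for oxidised guanine (1.54, SE 0.20, and 1.39, SE 0.15), were higher in oocytes. Parp1, which marks strand breaks with poly(ADP-ribose), had the highest RPKM of the 40 in cumulus cells, 21.3 ± 3.58 (SD, n = 15) against 7.73 ± 2.15 in young oocytes, without overlap (-1.45, SE 0.12, and -1.71, SE 0.08). Apex1, the nuclease that cuts at sites without a base, was also lower in oocytes (-1.10, SE 0.14, and -0.48, SE 0.11).

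**Figure D2:**
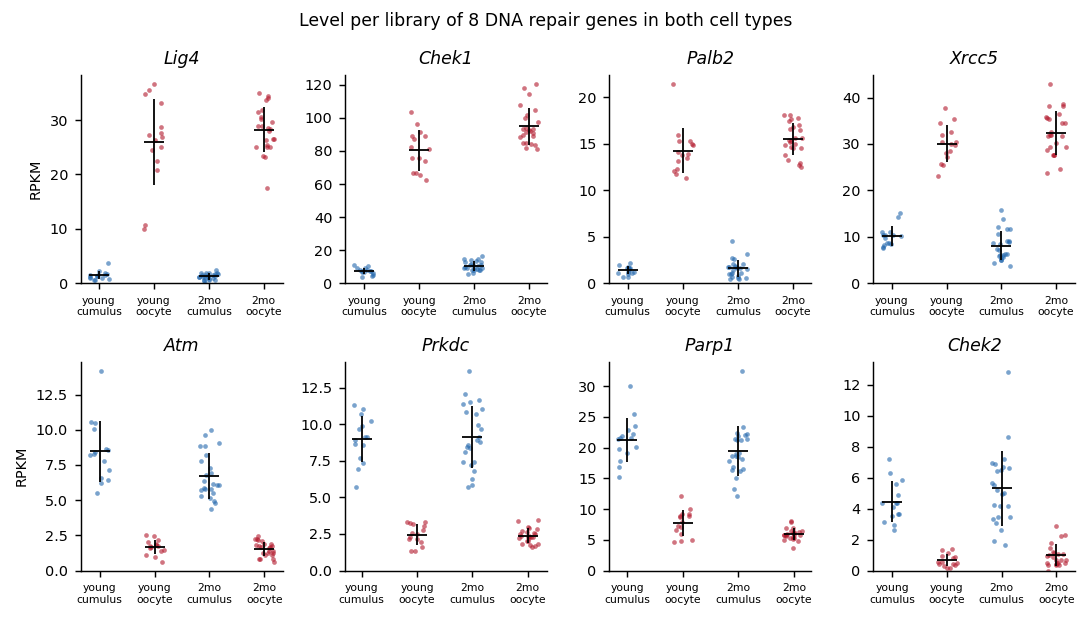
RPKM of 8 members in each library of the young and 2mo groups, oocytes beside the cumulus cells of the same complexes, 1 point per library, with lines at the mean and bars of 1 SD. Chek1 and Lig4 lie higher in every oocyte library than in any cumulus library, while Atm, Prkdc and Parp1 show the opposite order.

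The tests between cell types were repeated with the complex as a block, which gave 31 and 36 calls again. In young females the split was 20 higher and 14 lower by DESeq2, which changes the test and the scaling together, and 20 higher and 16 lower with the correction for length and GC content together with the complex as a block. Of the 31 calls in young females 25 held under every alternative tried, the exceptions being Rad50, Nbn, Blm, Xrcc6, Msh3 and Lig3, and of the 36 calls at 2mo 31 did, the exceptions being Rad54l, Nbn, Blm, Pms2 and Ercc1. Genes whose exons overlap a member's also differed in young and 2mo complexes. Fbxo11 (Msh6, 2.00 and 1.92), Rffl (Lig3, 3.12 and 3.08) and Gm42529 (Brca2, 1.92 and 2.53) moved with their member. So did Desi1 (Xrcc6, 0.90 and 0.98) and Pip4p1 (Apex1, -0.95 and -0.79). Others moved against it, among them Camk1 (Ogg1, -3.67 and -4.24) and Ankrd49 (Mre11a, 1.33 and 1.90). The part of shared reads in these differences was not tested.

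The promoters of the members are shown because genes of DNA replication and repair are a known class of targets of E2F factors. RefSeq promoter sequences (GRCm38.p6, 250 bases before to 50 after the start of a gene) were found for 32 of the 40 members. TTCCCGC and TTGGCGC, 2 forms of the E2F motif, were searched on both strands, and matches were counted per gene for the members and per window for all 32851 promoters. Such a match stood in 15 of 32 members (46.9%) and in 6.81% of all promoters. The letters CCAAT, on either strand, were held by 20 of 32 members (62.5%) and by 37.4% of all promoters, and TTTGAA or TTTAAA, forms of the cell cycle homology region, by 6 of 32 (18.8%) and by 27.6%. The matches of 4 members that were higher in oocytes and of 2 that were lower are given here 5′ to 3′ along the gene's strand, with the matching letters in capitals.
Chek1, chr9:36726609-36726624, minus strand: caggttttgGCGGGAA
Brca2, chr5:150522444-150522468, plus strand: taggccacaGCGGGAAacagacaca
Xrcc6, chr15:82016314-82016338, plus strand: ggggtggaaGCGGGAAatgcgagtg
Msh6, chr17:87975057-87975081, plus strand: ctcccgactTTCCCGCcagcggcgg
Atm, chr9:53536641-53536665, minus strand: gagccggaaGCGGGAAggcgtgcgt
Chek2, chr5:110839822-110839846, plus strand: ggattagccGCGGGAAaccaagacg
The same letters therefore stood in members of either direction, in 9 of the 17 members with a promoter that were higher in oocytes in both sets and in 3 of the 7 that were lower. A match is a description of the sequence and not of binding.

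CR was compared with AL feeding at 9 months, in 27 CR against 14 middle oocytes. In oocytes 23 of 40 members differed, 17 higher and 6 lower under CR, where 30.0% of all genes differed (15.8% higher and 14.2% lower). The median member was higher by 0.24 (log2), and the median of all genes was 0.00. All 5 end joining members were called, 4 higher and Xrcc6 lower, along with 8 of 15 in homologous recombination (6 higher, 2 lower), 3 of 4 kinases (all higher) and 2 of 3 in mismatch repair (both higher). Nucleotide excision repair had 1 higher and 1 lower of 6, base excision and single-strand break repair 1 higher and 2 lower of 5, and neither Fanconi anemia gene passed. Of 95 other genes of these pathways 36 were higher and 14 lower. Marker genes of several cell types, the oocyte included, moved in the same libraries. Of 6 luteal or theca markers 5 fell, and their summed level ran from 1.12 to 1377 CPM with a median of 8.97 in middle and from 2.39 to 102.2 with a median of 9.95 in CR oocytes, Cyp17a1, Lhcgr and Ptgfr having a median of 0 in oocytes. Of 12 oocyte markers 4 fell and 1 rose (summed level 17168 to 28061 CPM in middle and 12773 to 26289 in CR oocytes), and of 4 endothelial markers 2 rose (73.1 to 117.6 and 96.1 to 134.6 CPM). In young females 3 of these 4 endothelial markers were higher in oocytes than in cumulus cells and 1 was lower. Of 10 cumulus and granulosa markers 2 rose and 1 fell, and of 14 cycling markers 2 rose and 3 fell. The part of these markers in the members' changes was not tested.

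The largest increases were those of Xrcc4, Nbn, Prkdc and Rad51d. Xrcc4 ran from 3.79 to 15.5 CPM with a median of 7.37 in middle oocytes and from 8.46 to 26.6 with a median of 13.6 in CR oocytes. The libraries overlapped, but the mouse means did not, at 6.84 to 8.80 CPM in 4 AL mice and 12.8 to 16.4 in 3 CR mice. The log2 change was 0.82 (SE 0.14, adjusted p = 1.12e-05), and the exact permutation p over mice was 0.0286, the smallest that 4 against 3 mice can give. Nbn, a subunit of the MRN complex, rose from a median of 10.0 to 17.5 CPM (0.76, SE 0.13), with mouse means of 7.37 to 11.7 and 17.0 to 17.8. Prkdc rose from 31.0 to 48.2 CPM (0.69, SE 0.16), with mouse means of 22.8 to 31.4 and 34.05 to 48.1. Rad51d rose from 35.2 to 48.9 CPM (0.62, SE 0.14), but unlike the other 3 its call was lost with counts summed per mouse.

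Other end joining members with clear increases were Lig4 and Xrcc5. Lig4 rose from a median of 133.1 CPM (93.6 to 165.9) to 190.0 (112.1 to 255.4), a log2 change of 0.55 (SE 0.08, adjusted p = 4.07e-07). Xrcc5 rose from 66.8 CPM (51.5 to 101.2) to 89.2 (78.4 to 111.2), by 0.45 (SE 0.07). For both genes every CR mouse lay above every AL mouse. Xrcc6 fell, from a median of 39.8 to 33.97 CPM (-0.27, SE 0.07), with overlapping mouse means, while its Ku partner rose. The Xrcc6 call did not hold under the correction for length and GC content, with counts summed per mouse or with all deposited libraries. Of the kinases Atm rose from a median of 15.5 to 24.4 CPM (0.62, SE 0.16), Atr from 80.9 to 108.3 (0.48, SE 0.11) and Chek1 from 349.5 to 428.3 (0.29, SE 0.08).

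In homologous recombination, Brca2 rose from 386.0 to 508.2 CPM at the median (0.46, SE 0.06, adjusted p = 9.42e-08), with mouse means of 348 to 420 in the AL and 505 to 519 in the CR group. Bard1, the partner of Brca1, rose by 0.42 (SE 0.08), Mre11a by 0.38 (SE 0.08) and Rad50 by 0.28 (SE 0.07). Brca1 measured 0.24 (SE 0.11, adjusted p = 0.101) and Blm 0.17 (SE 0.07, adjusted p = 0.0529), and neither passed. The steepest decrease of all members was that of Rad52, a protein that anneals single strands. Its level ran from 15.4 to 33.3 CPM with a median of 24.04 in middle oocytes and from 6.42 to 23.9 with a median of 12.8 in CR oocytes. The mouse means did not overlap, at 20.2 to 27.5 and 12.3 to 17.3 CPM, and the log2 change was -0.90 (SE 0.11, adjusted p = 2.03e-08, exact permutation p = 0.0286). Xrcc3 fell from 71.8 to 47.5 CPM (-0.53, SE 0.10), again with separate mouse means.

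In mismatch repair Msh6 rose from 143.7 to 195.2 CPM (0.44, SE 0.09) and Pms2, which cuts the strand to be replaced, by 0.57 (SE 0.13), while Msh3 measured -0.15 (SE 0.08, adjusted p = 0.154). In nucleotide excision repair Xpc rose by 0.37 (SE 0.11) and Ercc1, which cuts on the 5′ side of a lesion together with Ercc4, fell by 0.46 on the log2 scale (SE 0.14). Xpa measured 0.10 (SE 0.16, adjusted p = 0.704). In base excision and single-strand break repair Parp1 rose by 0.34 (SE 0.11), whereas Xrcc1 (-0.30, SE 0.08) and Ogg1 (-0.36, SE 0.12) fell and Apex1 measured 0.25 (SE 0.10, adjusted p = 0.0523).

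**Figure D3:**
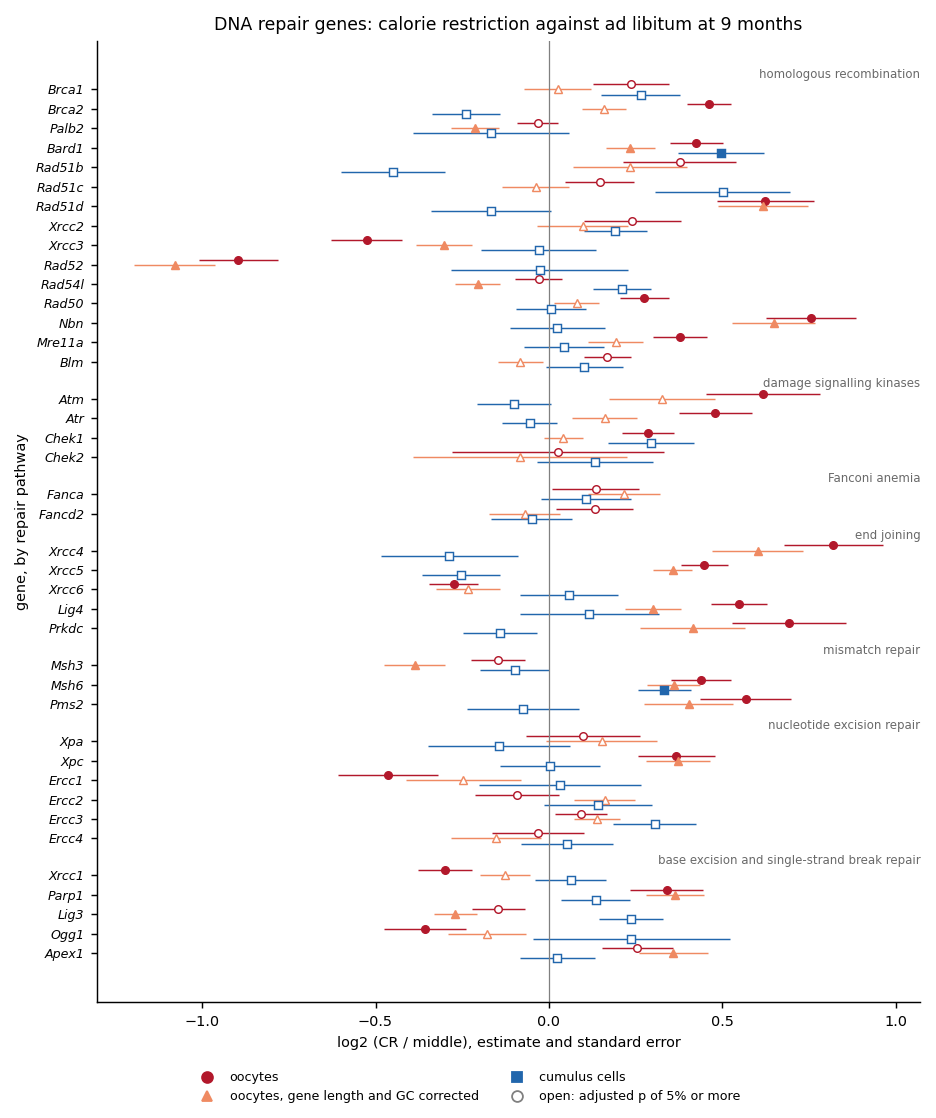
Log2 change from the middle to the CR group for the 40 members by pathway, in oocytes, in oocytes after correction for length and GC content and in cumulus cells, with bars of 1 SE and open symbols where the adjusted p missed 5%. In oocytes without correction the 5 end joining members lie at 0.82, 0.69, 0.55, 0.45 and -0.27, while in cumulus cells only Bard1 and Msh6 passed the test.

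**Figure D4:**
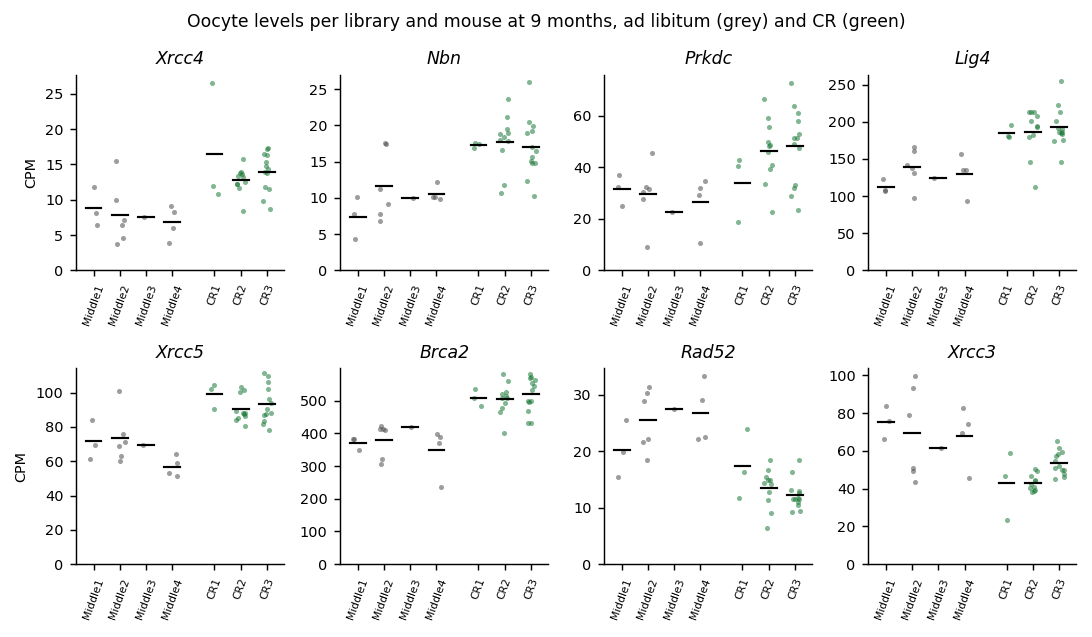
CPM of 8 members in middle and CR oocytes by mouse label, 1 point per library with a line at the mean of each mouse. Middle3 is a single oocyte library. Rad52 lies lower in each of the 3 CR mice than in each of the 4 AL mice, and Xrcc4, Nbn and Brca2 lie higher.

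Over mice, 18 of 40 members had separate means (15 higher, 3 lower in CR) where 23.7% of all genes did. The CR calls moved with base composition. The exons of the 17 higher members had a median GC content of 45.2% and those of the 6 lower ones 55.8%, and over all genes the rank correlation of the CR change with GC content was -0.24. After a correction for length and GC content, 18 members were called, 12 higher and 6 lower, and 13 of these were shared with the first count. Atm, Atr, Brca2, Chek1, Ercc1, Mre11a, Ogg1, Rad50, Xrcc1 and Xrcc6 were lost. With counts summed per mouse 10 members were called, 8 higher and 2 lower. Bard1, Xrcc3, Rad52, Nbn, Xrcc4, Xrcc5, Lig4 and Prkdc, 8 members, kept their call under all 15 alternatives. Exons of Xrcc3 overlap those of Klc1 and exons of Xrcc4 those of Tmem167, and these neighbours measured -0.09 and 0.04 (adjusted p = 0.521 and 0.865). Exons of Atr overlap those of Gm16794 and exons of Msh6 those of Fbxo11, and these neighbours rose as well, by 0.92 (adjusted p = 2.36e-05) and 0.23 (adjusted p = 0.00244). Their part in the Atr and Msh6 values was not tested. Without mouse Middle2 the calls of Xrcc6, Xpc, Ercc1, Parp1 and Ogg1 were lost, without CR2 that of Ercc1, without CR3 those of Parp1 and Ogg1 and without Middle4 that of Ogg1, at adjusted p-values from 0.0630 to 0.311.

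In cumulus cells CR changed few members. Of 40, 2 differed between 25 CR and 15 middle samples, both higher, where 3.60% of all genes differed (2.06% higher). Bard1 rose from a median of 51.7 CPM (35.9 to 97.7) to 79.0 (26.4 to 110.0), a log2 change of 0.50 (SE 0.12, adjusted p = 0.0147). Msh6 rose from 90.1 CPM (58.3 to 112.0) to 110.1 (74.8 to 143.0), by 0.33 (SE 0.08, adjusted p = 0.00707). The libraries of both genes overlapped between the groups. Markers of cycling cells moved beside them, with 5 of 14 higher and a summed level of 2494 to 4444 CPM in CR against 2300.0 to 4114 in middle cumulus cells. Of 4 red blood cell markers 3 fell, all 4 having a median of 0 in cumulus cells. Of 6 luteal or theca markers 2 fell and 1 rose. The part of these markers in the result was not tested. Neither call held with counts summed per mouse. Msh6 was lost without mouse Middle1 (adjusted p = 0.0628), and Bard1 without Middle1 (0.0842), Middle4, CR2 or CR3.

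The other members that were fixed for naming did not pass in cumulus cells. Brca1 measured 0.26 (SE 0.11), Brca2 -0.24 (SE 0.10), Blm 0.10 (SE 0.11), Atm -0.10 (SE 0.11) and Atr -0.06 (SE 0.08). Of the end joining genes, Xrcc5 measured -0.25 (SE 0.11), Xrcc6 0.06 (SE 0.14) and Prkdc -0.14 (SE 0.11). Msh3 measured -0.10 (SE 0.10), Xpa -0.15 (SE 0.20), Xpc 0.00 (SE 0.14), Xrcc1 0.06 (SE 0.10), Parp1 0.13 (SE 0.10), Ogg1 0.24 (SE 0.28) and Apex1 0.02 (SE 0.11). An interaction term tested whether the CR change differed between the cell types. It did for 14 members, where 12.7% of all genes passed (4.30% with the higher change in oocytes and 8.42% with the lower). The change was higher in oocytes than in cumulus cells for Xrcc4 (1.01, SE 0.24), Rad51b, Prkdc, Rad51d, Nbn, Atm, Brca2, Xrcc5 and Atr, and lower for Rad52 (-0.95, SE 0.27), Xrcc3, Lig3, Xrcc1 and Rad54l. With the correction for length and GC content 8 of the 14 passed, and with counts summed per mouse 0.

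Age changed few members in oocytes. Between young and middle oocytes 0 of 40 members passed by edgeR, where 0% of 22958 genes did, and DESeq2 called 0. An unadjusted p under 0.05 was reached by 3 members. Between young and old oocytes 2 members passed, where 7.39% of all genes did (4.40% higher and 2.99% lower). Chek2 ran from 0.395 to 3.62 CPM with a median of 1.33 in young and from 1.16 to 9.63 with a median of 2.39 in old oocytes, a log2 change of 1.07 (SE 0.33, adjusted p = 0.0442). Xpc ran from 12.4 to 45.6 CPM with a median of 31.7 in young and from 3.68 to 30.4 with a median of 17.5 in old oocytes (-0.82, SE 0.21, adjusted p = 0.0252). The libraries of both genes overlapped. Old oocyte libraries also held more RNA of cumulus cells, as the marker share had a median of 6.86% under 1 old mouse label (Old1_2) and 3.50% under the other, against 1.96% and 1.44% in the young mice. Of 10 cumulus and granulosa markers 3 rose, and of 6 luteal or theca markers 5 rose (summed level 1.94 to 18.0 CPM in young and 1.53 to 640.5 in old oocytes). With this share as a covariate neither gene passed (adjusted p = 0.380 for Chek2 and 0.267 for Xpc). The share went with the age group, so this covariate cannot tell cumulus RNA and age apart. Without Young1, Young2 or Old1_2 0 members were called, and 8 were called without Old3. Only 2 mouse labels stood on each side, so that an exact permutation test over them cannot go below 0.333.

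The second set gave other values for both genes. From 2mo to 14mo Chek2 measured -0.44 (SE 0.29, adjusted p = 0.551) and Xpc -0.01 (SE 0.08, adjusted p = 0.969), and the difference between the sets passed for both (1.53, SE 0.45, for Chek2 and -0.79, SE 0.21, for Xpc), where 5.25% of all genes did (3.08% higher and 2.17% lower in the first set). From 2mo to 4mo and from 2mo to 9mo 0 members passed in oocytes, by edgeR or DESeq2, where 0.0126% and 0.160% of all genes passed edgeR's test, with 2 and 5 members at an unadjusted p under 0.05. From 2mo to 14mo 1 member rose, where 1.14% of all genes differed (0.662% higher). This was Ercc4, a nuclease of nucleotide excision repair, from a median of 27.2 CPM (16.03 to 37.7) to 33.96 (24.95 to 41.01), with a log2 change of 0.33 (SE 0.09, adjusted p = 0.0426) and an exact permutation p of 0.0159 over 5 against 5 mice. The call was lost without each of 8 of the 10 mouse labels, at adjusted p-values up to 0.107. From young to old in the first set Ercc4 measured -0.19 (SE 0.19), and the difference between the sets did not pass (-0.51, SE 0.20, adjusted p = 0.104).

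In cumulus cells Rad51b was the member that recurred with age. From young to middle it was the only member to pass (1.46% of all genes, 0.653% higher), from a median of 31.0 CPM (21.3 to 40.2) to 38.4 (23.3 to 65.2), a log2 change of 0.50 (SE 0.13, adjusted p = 0.0472). This call was lost without Young1, Young2, Middle2, Middle3 or Middle4, at adjusted p-values from 0.0670 to 0.464. From young to old it measured 0.46 (SE 0.12, adjusted p = 0.0217). In the second set, with other mouse labels, Rad51b had medians of 24.9 CPM at 2mo (12.7 to 37.99), 33.7 at 4mo (9.49 to 63.8), 36.9 at 9mo (11.2 to 81.1) and 27.8 at 14mo (13.2 to 49.4). The libraries of these 4 groups overlapped. It was again the only member to pass from 2mo to 4mo (0.50, SE 0.11, adjusted p = 0.0221, 0.519% of all genes, 0.398% higher) and from 2mo to 9mo (0.60, SE 0.15, adjusted p = 0.0249, 1.92% of all genes, 1.51% higher). Mouse means were 22.7 to 31.4 CPM at 2mo and 28.6 to 42.2 at 4mo (exact permutation p = 0.00388 over 5 against 8 mice), and 29.7 to 48.9 at 9mo (exact permutation p = 0.0397 over 5 against 4). From 2mo to 14mo 0 members passed by edgeR or DESeq2 (1.70% of all genes by edgeR, 6 members at an unadjusted p under 0.05), and Rad51b measured 0.28 (SE 0.14, adjusted p = 0.353). The comparisons within a set share the 2-month samples. The 2mo samples also enter the hyperovulation comparison, where Rad51b was lower in them than in 2moNoH samples, so these Rad51b results are not independent. From 2mo to 9mo 5 of 6 luteal or theca markers rose (summed level 50.5 to 572.5 CPM at 2mo and 44.9 to 3420 at 9mo, with a median of 0 for Ptgfr in cumulus cells) and 2 of 14 cycling markers fell, and from 2mo to 4mo none of either list passed. Their part in the Rad51b values was not tested. With counts summed per mouse or the mouse as a random block Rad51b was called in neither comparison of the second set. Its 4mo call was lost without mouse 2mo2, 2mo36 or 4mo28, and its 9mo call without 2mo2, 2mo34, 2mo36, 9mo23 or 9mo24.

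**Figure D5:**
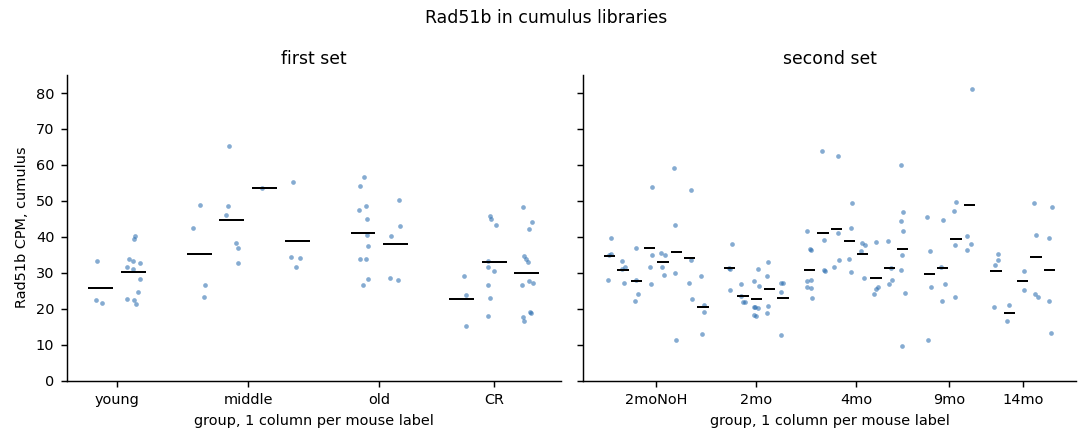
CPM of Rad51b in cumulus cells by group, in both sets, 1 point per library by mouse label with a line at each mouse mean. Group medians go from 31.0 in young to 38.4 in middle samples and from 24.9 at 2mo to 33.7 at 4mo and 36.9 at 9mo, and the 14mo group lies at 27.8.

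From young to old cumulus cells 7 members rose and none fell, where 3.96% of all genes differed (1.77% higher). Of these 7, 5 belong to homologous recombination, namely Palb2 (0.59, SE 0.17), Xrcc3 (0.54, SE 0.16), Rad51b, Rad50 (0.35, SE 0.08) and Brca2 (0.34, SE 0.08), beside Prkdc (0.33, SE 0.09) and Atr (0.28, SE 0.07). Rad50 ran from 82.1 to 130.7 CPM with a median of 98.8 in young and from 96.7 to 170.0 with a median of 127.3 in old samples, with overlap. From 2mo to 14mo the same genes measured between -0.07 (Rad50) and 0.28 (Rad51b), and the difference between the sets passed for 0 members (0.810% of all genes, 3 members at an unadjusted p under 0.05). After correction for length and GC content 2 of the 7 passed, Rad51b and Rad50. With counts summed per mouse 0 were called, and likewise without Old1_2 or without Young2. Without Young1 4 members were called and without Old3 3.

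Hyperovulation was compared at 2 months, in 24 hyperovulated (2mo) against 32 untreated (2moNoH) oocytes. In oocytes 0 of 40 members passed by edgeR or DESeq2, where 0.0299% of all genes passed edgeR's test, and 4 members had an unadjusted p under 0.05. Of the members fixed for naming, Brca1 measured -0.08 (SE 0.05), Brca2 0.02 (SE 0.04), Blm -0.00 (SE 0.05), Atm -0.04 (SE 0.13) and Atr -0.08 (SE 0.06). Xrcc5 measured -0.06 (SE 0.05), Xrcc6 0.01 (SE 0.04), Prkdc -0.06 (SE 0.08), Msh3 -0.02 (SE 0.06), Msh6 -0.01 (SE 0.04), Xpa 0.02 (SE 0.15) and Xpc -0.04 (SE 0.06). In base excision and single-strand break repair Xrcc1 measured -0.01 (SE 0.04), Parp1 0.10 (SE 0.07), Ogg1 0.12 (SE 0.09) and Apex1 -0.04 (SE 0.09). Brca2 ran from 269.6 to 448.9 CPM with a median of 354.8 without and from 328.0 to 438.9 with a median of 364.4 with stimulation, so that the groups lay over each other.

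In cumulus cells hyperovulation changed 6 members, 5 higher and 1 lower, where 13.2% of all genes differed (6.16% higher and 7.01% lower). Fanca rose from a median of 72.3 CPM (33.2 to 185.8) to 107.9 (57.8 to 151.9), a log2 change of 0.48 (SE 0.14, adjusted p = 0.0131). Ercc4 rose from 28.99 CPM (12.96 to 42.8) to 38.02 (18.0 to 74.1), by 0.43 (SE 0.12, adjusted p = 0.0109). Xrcc2, of homologous recombination, rose from 37.1 CPM (13.4 to 65.9) to 51.0 (23.5 to 104.7), by 0.41 (SE 0.13, adjusted p = 0.0255), and its mouse means were separate at 28.8 to 43.8 and 45.05 to 57.6 (exact permutation p = 0.00155 over 8 against 5 mice). Bard1 (0.41, SE 0.14) and Mre11a (0.29, SE 0.10) also rose, and Rad51b fell, from 31.3 to 24.9 CPM (-0.35, SE 0.12). The libraries of all 6 genes overlapped between the groups. With the mouse as a random block 1 call remained, that of Fanca, and with counts summed per mouse 0. Over mice, 2 of 40 members had separate means, Xrcc2 and Prkdc, where 1.32% of all genes did. Prkdc measured 0.31 (SE 0.12, adjusted p = 0.0666).

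Markers of cycling cells moved in the same samples, as 10 of 14 rose and their summed level had a median of 2958 CPM (2472 to 3999) with and 2283 (1139.6 to 3502) without hyperovulation. Of 10 cumulus and granulosa markers 4 rose, of 4 endothelial markers 1 rose and of 6 luteal or theca markers 1 fell. Of the 4 oocyte markers tested 2 rose and 1 fell. The part of these markers in the result was not tested. Of the other members fixed for naming, Brca1 measured 0.00 (SE 0.11), Brca2 -0.09 (SE 0.12), Blm 0.20 (SE 0.11), Atm -0.13 (SE 0.11) and Atr -0.11 (SE 0.11). Xrcc5 measured 0.02 (SE 0.13), Xrcc6 0.04 (SE 0.12), Msh3 -0.06 (SE 0.10), Msh6 0.15 (SE 0.11), Xpa -0.09 (SE 0.19) and Xpc -0.15 (SE 0.16). Xrcc1 measured 0.23 (SE 0.12), Parp1 -0.08 (SE 0.09), Ogg1 -0.11 (SE 0.18) and Apex1 0.01 (SE 0.11). Without mouse 2mo34 0 members were called (adjusted p = 0.0982 for Fanca), without 2moNoH8 or 2moNoH13 3 members were called, and without 2mo1, 2mo35, 2mo36, 2moNoH9, 2moNoH10 or 2moNoH12 4. The response differed between oocytes and cumulus cells for 2 members, Bard1 (-0.50, SE 0.15) and Ercc4 (-0.51, SE 0.14), where 4.05% of all genes passed (1.91% with the lower change in oocytes).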

How the data were processed

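Single germinal vesicle oocytes and the cumulus cells of their complexes were profiled by RamDA-seq. The authors trimmed reads with Fastq-mcf, aligned them with HISAT2 2.0.5 to GRCm38 and counted them with featureCounts 1.5.1 over GENCODE genes, multi-mapped reads included. The deposited values are expected counts per gene, since 36.8% of the nonzero values in the first and 35.1% in the second set were not whole; they were rounded for the tests. Deposited RPKM values gave the gene lengths.

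Genes counted in 5 or more libraries were tested with edgeR 4.0.16 (TMM, quasi-likelihood, Benjamini-Hochberg, 5%) on R 4.3.3, separately per comparison and cell type. The study's groups follow the labels. Interaction terms tested differences between responses. The mean log2(CPM + 1) per mouse label was compared by exact permutation, with no adjustment over the members. Oocytes and cumulus cells of 1 complex are paired by design. Their deviations from the group means correlated at a median of 0.028 in young and 0.018 in 2mo complexes.

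Alternatives were DESeq2 1.42.0, no filter, counts summed per mouse, the mouse as a random block (limma 3.58.1), leaving out each mouse label, the share of cumulus marker RNA or the name prefix as a covariate, counts drawn down to equal depth, all deposited libraries, the complex as a block, and a correction for length and GC content. The members and gene lists were chosen with earlier results of these data known. Each member past the threshold was counted, the rule named up to 4 increases and 4 decreases per comparison and gave 16 members in each CR, hyperovulation and cell type comparison. Further called members, and those shown beside them, were named after their values were seen. On simulated data with 200 genes changed 2-fold the test recovered 177 in young against old oocytes and 196 in middle against CR oocytes. It also called 21 and 17 unchanged genes. The simulated libraries had no mouse effect, so these runs cannot show how the test does with several libraries per mouse. No library was identical to another.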

Additional observations from a re-analysis of the deposited data

Results flagged for a closer look

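The response to CR differed between oocytes and cumulus cells for 14 members, by an interaction term in edgeR fitted over both cell types. Of all genes 12.7% passed (4.30% with the higher change in oocytes and 8.42% with the lower). The libraries were the units, and 0 of the 14 calls held under all 3 alternatives. The values are log2 differences, oocyte response minus cumulus response. End joining gave Xrcc4 1.01, Prkdc 0.74 and Xrcc5 0.61. Homologous recombination gave Rad51b 0.74, Rad51d 0.69, Nbn 0.64 and Brca2 0.62 on the positive side, and Rad52 -0.95, Xrcc3 -0.59 and Rad54l -0.33 on the negative side. The kinases gave Atm 0.63 and Atr 0.44, and base excision and single-strand break repair gave Lig3 -0.47 and Xrcc1 -0.45.

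The response to hyperovulation differed between the cell types for Bard1 (-0.50) and Ercc4 (-0.51), both with a rise in cumulus cells and oocyte values of -0.09 and -0.08. Of all genes 4.05% passed, and 0 of these 2 calls held under all 3 alternatives. The change from 2 to 14 months in oocytes differed between the sets for Chek2 (1.53) and Xpc (-0.79), first set minus second set. There 5.25% of all genes passed, and again 0 of the 2 calls held under all 3 alternatives. The share of cumulus marker RNA also differed between young and old oocytes of the first set, with medians of 1.55% and 4.76%. With this share as a covariate neither gene passed there, but the share went with the age group, so the covariate cannot tell them apart.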

How the results depend on the processing

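Most counts of called members stayed within 1.5 times of the reported ones. Those below did not, and the cause was not tested. With counts summed per mouse, 10 members were called for CR in oocytes and 0 for each of CR in cumulus cells, hyperovulation in cumulus cells, every age comparison with a call in either cell type, the CR and hyperovulation differences between cell types and the difference between sets. Summing leaves fewer samples. Young against old oocytes gave 7 calls by DESeq2, 1 with no filter, and 0 with the mouse as a random block or with the cumulus share as a covariate. The oocyte call from 2mo to 14mo went to 0 with no filter, the covariate or the correction for length and GC content. In cumulus cells young against middle gave 0 with no filter, with the mouse block and with all deposited libraries, 2mo against 4mo and 2mo against 9mo gave 0 with the mouse block, and hyperovulation gave 1. Correction for length and GC content, added after seeing the data, left 2 calls in young against old cumulus cells and 8 in the CR difference, and the hyperovulation difference without filter gave 1. Rad54l reversed in the CR difference summed per mouse, to 0.0158.

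Leaving out each mouse label in turn gave 28 to 32 calls between cell types in young and 34 to 37 in 2mo females. In oocytes it gave 18 to 25 calls for CR, 0 to 8 for young against old and 0 to 1 from 2mo to 14mo, and 0 in the other comparisons. In cumulus cells it gave 1 to 3 for CR, 0 to 8 for hyperovulation, 0 to 3 for young against middle, 0 to 4 for young against old, 0 to 1 from 2mo to 4mo, 0 to 2 from 2mo to 9mo and 0 from 2mo to 14mo. With the complex as replicate block 31 and 36 members differed between cell types, as before. Of the values for single named members under the alternatives, 1109 kept their direction and their side of the threshold and 221 kept the direction but fell short of it. Depth limits low members such as Chek2 in oocytes. Between cell types the median of all genes was -0.08 in young and -0.16 in 2mo complexes but -0.29 and -0.40 by DESeq2.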
